A study of Mus musculus with 6 samples.

Results

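Cells of a mouse mesenchymal line that carried extra Tead4 were set directly against cells of the same line that carried extra Pbx3. Mesenchymal stem cells are stromal cells that can form bone, cartilage and fat; the line is immortalized and grown from 1 clone, and its labels also call the cells fibroblasts. Both groups are Dicer wild type (Dicer f/f, floxed but not deleted) and were transfected with a vector holding the Tead4 or the Pbx3 transcript. The remaining transfected groups, empty vector and Sox9, have the same genotype and were used here for the spread and as a reference level. All cells grew subconfluent in Alpha-MEM with serum, and the labels name no further treatment. The comparison takes 2 of the 6 samples of the series. In the transfected groups each deposited value is a mean over 2 sequencing libraries, whose reads could be recovered exactly, so 4 of 8 libraries of transfected cells belong to the comparison. Labels do not say whether the 2 libraries of a group come from separate cultures, so p-values measure only the spread between libraries, which may be technical. For each gene the Tead4 level was compared with the Pbx3 level where the mean of both was 50 normalised reads or more, which left 9815 of 23227 genes for reads in exons and 8581 of 23231 for reads in introns. A difference is the mean log2(normalised reads + 1) of Tead4 cells minus that of Pbx3 cells, so a positive value is higher in Tead4 cells. It is followed by its standard error (SE, n = 2 libraries per group). This SE is limma's moderated one, whose variance draws on all 8 libraries of transfected cells and on other genes of like level. A gene is called where limma's moderated test gave a Benjamini-Hochberg adjusted p under 0.05 over all genes of that kind of read.

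TEAD4 is a DNA-binding factor of the Hippo pathway. TEAD factors have little activity alone and recruit the coactivators YAP and TAZ, which the Hippo kinases keep out of the nucleus in dense or soft surroundings; Ctgf and Cyr61 are textbook targets. PBX3 is a homeodomain protein of the TALE class that binds DNA together with MEIS or PREP proteins and with Hox proteins, and is known from patterning of limbs and of the nervous system. Both factors are made in mesenchymal tissue.

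The libraries held 8669890 to 10877587 exonic reads and 3494141 to 4710539 intronic reads, and introns took 27.3% to 30.2% of them. Summed markers of stromal cells lay at 81648 and 82591 normalised reads in the Pbx3 libraries and at 89684 and 86885 in the Tead4 libraries. Blood cell markers summed to 140 to 207 over these 4 libraries, with 5 of 13 at 0 in each, and endothelial markers to 3.34 to 9.42, with 5 of 9 at 0. Epithelial markers summed to 8.48 to 55.5 (4 of 9 at 0) and neuronal markers to 35.8 to 84.7 (5 of 9 at 0). Markers of skeletal muscle summed to 1083 and 908 in Pbx3 cells and 619 and 688 in Tead4 cells, with 3 of 7 at 0. Only 1 of these 7 genes reached the minimum for testing in exons. Its difference was -0.60 (-0.80 in library pair 1 and -0.40 in pair 2), and it was not called. The muscle sums thus rest mainly on 1 gene and do not show a lower level of the markers as a set. The part of these cell types in the results was not tested; in bulk RNA, fewer cells of a type and less RNA per cell cannot be told apart.

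Each factor was high in the cells labelled for it. Tead4 stood at 6962 and 5121 normalised exonic reads in the Tead4 libraries, against 48.1 and 18.5 in the Pbx3 libraries and 39.3 and 41.3 with empty vector. Pbx3 stood at 36740 and 27165 in the Pbx3 libraries, against 279 and 258 in the Tead4 libraries and 259 and 221 with vector. Each factor was thus near its vector level in the cells made for the other factor. The differences were 7.59 ± 0.39 for Tead4 (adjusted p = 0.000355, limma) and -6.87 ± 0.19 for Pbx3 (adjusted p = 7.32e-06, limma).

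None of the other TEAD and PBX genes described here was called. Tead1, which is made in many tissues, had 1163 and 740 reads in Pbx3 cells and 1288 and 947 in Tead4 cells, and the libraries of the groups overlapped. Tead2 overlapped too, with 527 and 758 against 567 and 774. Tead3 did not overlap, at 139 and 134 in Pbx3 cells and 259 and 217 in Tead4 cells, a difference of 0.80 ± 0.20 (adjusted p = 0.116, limma). Pbx2 had 254 and 375 reads in Pbx3 cells and 387 and 375 in Tead4 cells. Pbx4 was under the minimum, with 3.77 and 11.3 in Pbx3 cells and 4.55 and 4.46 in Tead4 cells.

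In exonic reads 74 genes, 0.754% of those tested, were called: 35 (0.357%) higher in Tead4 cells and 39 (0.397%) lower. At an unadjusted p under 0.05 the count was 1625. By size alone 296 genes (3.02%) were at least 2-fold apart in the group means, 133 (1.36%) higher and 163 (1.66%) lower in Tead4 cells. Of these, 62 were called; the remaining 12 calls were under 2-fold, the smallest at 0.775 on the log2 scale. All 74 called genes had libraries that did not overlap between the groups, but so did 48.3% of all genes tested. The median difference over all genes tested was 0.02.

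The number of calls rests on single libraries. Without Tead4 library 1, 4 of the 74 genes stayed called (Fzd3, Itm2a, Pbx3 and Tead4), and without Pbx3 library 1, 5 did (the same 4 genes and Gpr126). Without Tead4 library 2 there were 33 calls, 26 of them among the 74, and without Pbx3 library 2 there were 35, 25 of them among the 74. In each of these fits the remaining library of a group is assumed to vary like the other groups. No called gene changed direction in any of them. Voom weights kept 71 of the 74 calls and ended those of Mboat2, Nid2 and Unc5c (adjusted p = 0.0543, 0.06 and 0.0545, limma). Upper-quartile scaling kept 59 of the 74. Among the calls it ended were those of Cldn1, Mboat2, Nid2 and Zfp521 (adjusted p = 0.0507, 0.0537, 0.057 and 0.0546, limma). Without Pbx3 library 2 the 2-fold count was 556 in place of 296, with 358 genes higher and 198 lower.

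**Figure D1:**
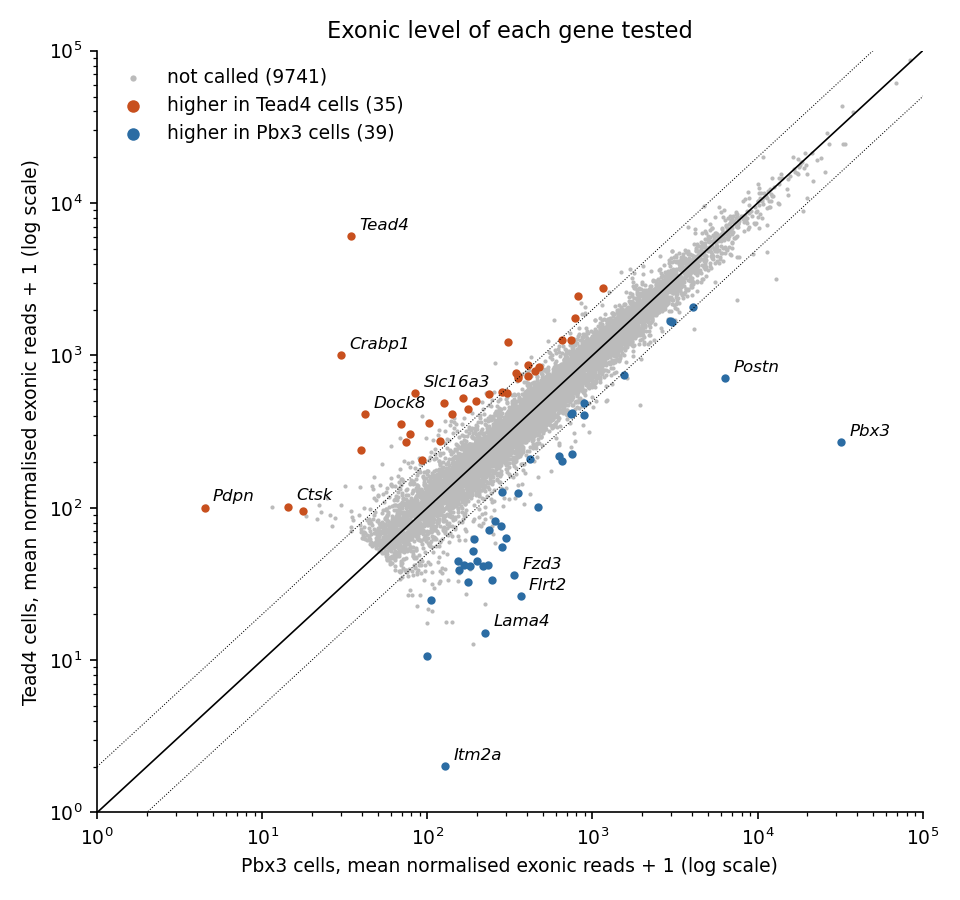
Mean normalised exonic reads + 1 of each of the 9815 genes tested, in Pbx3 cells (x axis) and Tead4 cells (y axis), both on log scales; the solid line marks equal levels and the dotted lines 2-fold. Orange points are the 35 genes called higher and blue points the 39 called lower in Tead4 cells; Tead4, Pbx3, Crabp1 and Itm2a lie farthest from the line among the called genes.

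Among the genes higher in Tead4 cells, the largest difference after Tead4 belonged to Crabp1, a cytosolic protein that binds retinoic acid. It had 15.1 and 43.2 reads in Pbx3 cells, 38.5 and 18.9 with vector, and 1222 and 792 in Tead4 cells. The Tead4 libraries stood apart from both other groups, by 5.21 ± 0.59 from Pbx3 cells (adjusted p = 0.0166, limma). Pdpn, which encodes the membrane glycoprotein podoplanin of lymphatic vessels and activated fibroblasts, had 2.83 and 4.11 reads in Pbx3 cells, 9.61 and 12.99 with vector and 118 and 80.3 in Tead4 cells. Pdpn differed by 4.48 ± 0.73 (adjusted p = 0.0459, limma), from a Pbx3 level of only a few reads.

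Proteins that act inside the cell or on its signals followed. Dock8 activates Cdc42, a small GTPase of the cytoskeleton. Its reads were 35.8 and 46.2 in Pbx3 cells, 40.2 and 27.2 with vector and 521 and 303 in Tead4 cells, a difference of 3.26 ± 0.33 (adjusted p = 0.0109, limma). Pde4b breaks down cyclic AMP. It had 37.7 and 40.1 reads in Pbx3 cells, 138 and 95.6 with vector and 249 and 224 in Tead4 cells, so vector cells lay between and nearer to Tead4 cells; the difference was 2.57 ± 0.25 (adjusted p = 0.00945, limma). Igf2bp2 binds RNA, among it that of Igf2, and stood at 106 and 144 reads in Pbx3 cells, 80.4 and 52.0 with vector and 559 and 416 in Tead4 cells, a difference of 1.95 ± 0.26 (adjusted p = 0.0298, limma). Zfp521, a zinc finger factor, had 77.3 and 68.8 reads in Pbx3 cells and 244 and 292 in Tead4 cells, with vector at 165 and 82.7; its difference was 1.86 ± 0.30 (adjusted p = 0.0459, limma).

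Several of the higher genes encode proteins of the cell surface or secreted enzymes. Ctsk is the collagen-cleaving protease best known from osteoclasts. It had 14.1 and 12.3 reads in Pbx3 cells, 42.8 and 56.7 with vector and 102 and 99.2 in Tead4 cells, so the 3 groups were in separate ranges, and differed by 2.84 ± 0.31 (adjusted p = 0.0124, limma). Slc16a3 exports lactate. Its 54.7 and 112 reads in Pbx3 cells, 156 and 102 with vector and 547 and 576 in Tead4 cells gave 2.83 ± 0.42 (adjusted p = 0.0353, limma). Cldn1, a tight junction protein, went from 62.2 and 75.005 in Pbx3 cells to 311 and 396 in Tead4 cells, with vector at 96.1 and 50.8, a difference of 2.34 ± 0.37 (adjusted p = 0.0432, limma).

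Aqp1 is a water channel. It had 274 and 339 reads in Pbx3 cells, 381 and 331 with vector and 1136 and 1307 in Tead4 cells, a difference of 1.99 ± 0.28 (adjusted p = 0.0338, limma). Gpr126 is an adhesion receptor needed by Schwann cells to form myelin. It had the smallest standard error of the 12 genes named in this direction, with 78.2 and 76.0 in Pbx3 cells, 78.7 and 66.1 with vector and 304 and 304 in Tead4 cells, and differed by 1.97 ± 0.17 (adjusted p = 0.00603, limma). The transcript 2210016F16Rik had 17.9 and 15.4 reads in Pbx3 cells, 35.0 and 42.5 with vector and 87.4 and 101 in Tead4 cells, a difference of 2.43 ± 0.30 (adjusted p = 0.0218, limma).

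**Figure D2:**
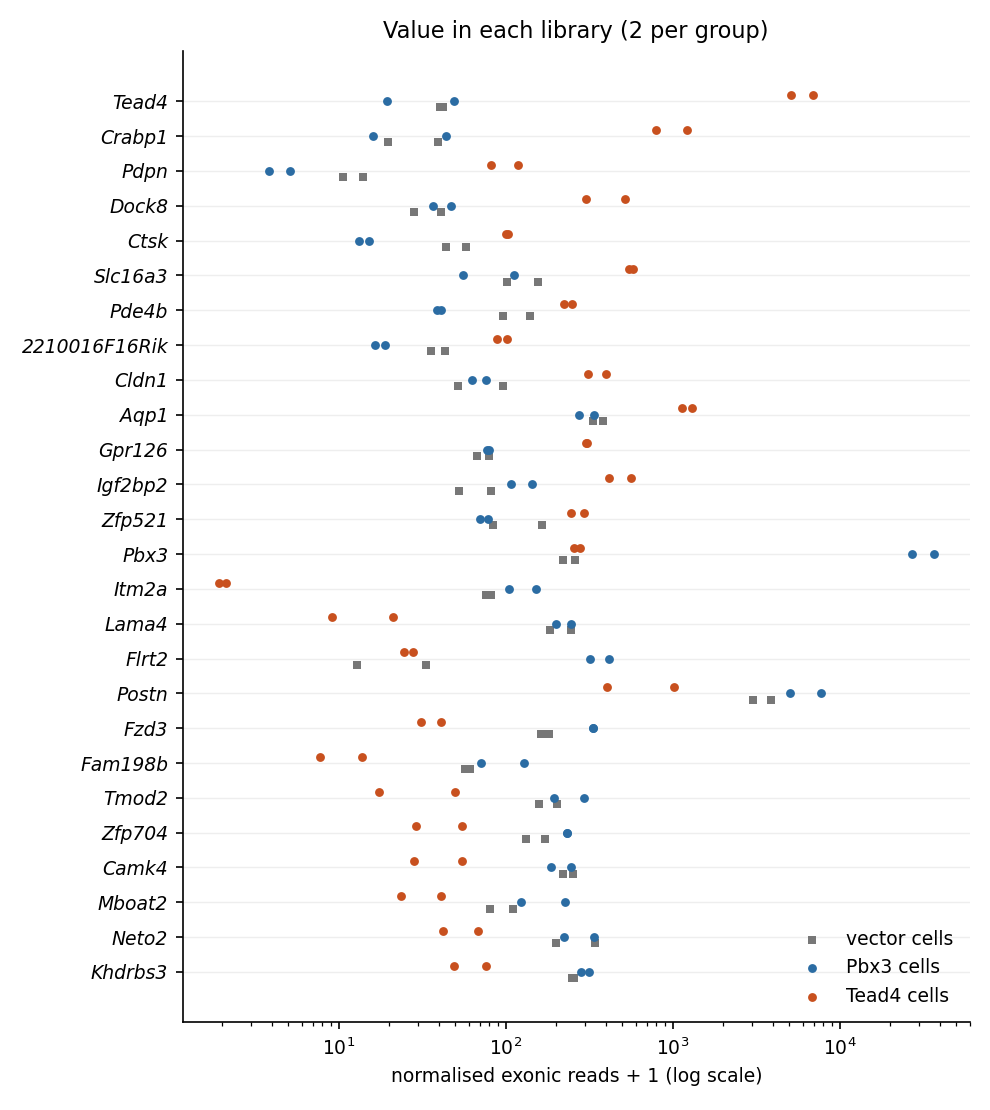
Normalised exonic reads + 1 (log scale) in each library of Tead4 cells (orange), Pbx3 cells (blue) and vector cells (grey squares) for Tead4, Pbx3 and the 12 called genes with the largest difference in each direction; each point is 1 library. Orange and blue points do not overlap in any row, and in the row of Flrt2 the vector points lie at the Tead4 level.

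Genes lower in Tead4 cells included several for matrix and for the cell surface. Itm2a, a membrane protein made in cartilage and muscle precursors, had 104 and 151 normalised reads in Pbx3 cells, 80.4 and 75.6 with vector and 0.910 and 1.11 in Tead4 cells. The Tead4 level is 2 reads in all against 257 reads in Pbx3 cells, a ratio of 128 with a 95% exact interval of 35 to 1060 that covers counting error only; the fitted difference was -5.97 ± 0.41 (adjusted p = 0.0016, limma). The gene lies on the X chromosome, whose genes as a whole were lower in Tead4 cells (values are given with the chromosomes).

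Lama4 encodes a laminin chain of vascular and muscle basement membranes. It had 244 and 199 reads in Pbx3 cells, 184 and 246 with vector and 8.19 and 20.1 in Tead4 cells, so vector cells were at the Pbx3 level and Tead4 cells were low, with a difference of -3.99 ± 0.41 (adjusted p = 0.011, limma). Postn encodes periostin, a matrix protein of bone lining and scars. Its reads were 5041 and 7713 in Pbx3 cells, 3040 and 3904 with vector and 404 and 1018 in Tead4 cells, a difference of -3.28 ± 0.42 (adjusted p = 0.0237, limma). Flrt2, a guidance and adhesion protein, showed the other arrangement: 413 and 321 reads in Pbx3 cells, 23.7 and 26.8 in Tead4 cells and 32.3 and 11.8 with vector, so Tead4 cells were at the vector level and Pbx3 cells were high. Flrt2 differed by -3.80 ± 0.47 (adjusted p = 0.0218, limma).

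Fzd3 is a Wnt receptor of the planar polarity branch. It had 333 and 335 reads in Pbx3 cells, 182 and 163 with vector and 30.0 and 40.1 in Tead4 cells, 3 separate ranges, and differed by -3.23 ± 0.20 (adjusted p = 0.000982, limma). Tmod2 caps the slow end of actin filaments, with 292 and 195 reads in Pbx3 cells, 156 and 201 with vector and 16.4 and 49.1 in Tead4 cells (-3.02 ± 0.45, adjusted p = 0.0378, limma). Neto2, a membrane protein that accompanies kainate receptors, had 339 and 223, 198 and 341, and 41.0 and 66.9 in the same order (-2.37 ± 0.34, adjusted p = 0.0348, limma). In both genes the vector and Pbx3 libraries overlapped and the Tead4 libraries lay below them.

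Camk4, a calcium-dependent kinase, was at 187 and 246 in Pbx3 cells, 253 and 221 with vector and 27.3 and 53.5 in Tead4 cells (-2.45 ± 0.35, adjusted p = 0.0348, limma). Khdrbs3, a splicing regulator, was at 284 and 313, 247 and 257, and 48.2 and 75.8 in the same order (-2.28 ± 0.22, adjusted p = 0.01, limma). Mboat2, an acyltransferase of phospholipids, was at 123 and 225, 109 and 79.1, and 22.8 and 40.1 (-2.42 ± 0.39, adjusted p = 0.0459, limma). In all 3 the vector mean was nearer to Pbx3 cells on the log2 scale. Zfp704, a zinc finger protein, had 231 and 231 reads in Pbx3 cells, 171 and 131 with vector and 28.2 and 53.5 in Tead4 cells (-2.54 ± 0.32, adjusted p = 0.0229, limma), and Fam198b had 127 and 69.9, 55.9 and 60.2, and 12.7 and 6.69 (-3.21 ± 0.37, adjusted p = 0.0183, limma).

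Most of the called genes had a vector level on the Pbx3 side. On the log2 scale, among the 35 higher genes the vector mean lay nearer to the Pbx3 mean in 30 and nearer to the Tead4 mean in 5. Among the 39 lower genes it lay nearer to Pbx3 in 34 and nearer to Tead4 in 5. It lay between the means of Tead4 and Pbx3 cells in 25 of the higher and 34 of the lower genes, and outside them in the rest. These are positions of group means, with no test of vector cells against either group.

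Promoters are shown for the genes with the largest differences after the factors, as far as RefSeq's table for GRCm38.p6 holds them; the reads were aligned to mm9, whose coordinates differ. Each window runs from 250 bases before to 50 bases after the start of the gene, 5′ to 3′ on the gene's strand, and capitals mark matches to the letters GGAATG that TEAD factors bind, searched on both strands. The letters TGATTGAT and TGATTGAC, which PBX binds with its partners, were searched likewise and match none of these windows. Crabp1 (chr9:54764498-54764797, plus strand), Pdpn (chr4:143299515-143299814, minus strand) and Dock8 (chr19:24999279-24999578, plus strand) were higher in Tead4 cells. Itm2a (chrX:107403311-107403610, minus strand) and Flrt2 (chr12:95691976-95692275, plus strand) were lower.
Crabp1: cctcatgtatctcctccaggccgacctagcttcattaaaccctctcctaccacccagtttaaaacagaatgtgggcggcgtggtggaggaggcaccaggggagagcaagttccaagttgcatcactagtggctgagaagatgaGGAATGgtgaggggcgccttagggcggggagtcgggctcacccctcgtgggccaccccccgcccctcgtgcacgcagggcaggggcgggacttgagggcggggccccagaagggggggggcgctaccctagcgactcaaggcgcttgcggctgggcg
Pdpn: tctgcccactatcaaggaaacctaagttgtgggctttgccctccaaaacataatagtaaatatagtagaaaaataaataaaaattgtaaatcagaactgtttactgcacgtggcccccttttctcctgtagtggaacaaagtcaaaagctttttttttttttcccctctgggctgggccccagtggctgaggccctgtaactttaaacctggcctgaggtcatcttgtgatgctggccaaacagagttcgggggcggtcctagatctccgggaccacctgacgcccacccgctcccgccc
Dock8: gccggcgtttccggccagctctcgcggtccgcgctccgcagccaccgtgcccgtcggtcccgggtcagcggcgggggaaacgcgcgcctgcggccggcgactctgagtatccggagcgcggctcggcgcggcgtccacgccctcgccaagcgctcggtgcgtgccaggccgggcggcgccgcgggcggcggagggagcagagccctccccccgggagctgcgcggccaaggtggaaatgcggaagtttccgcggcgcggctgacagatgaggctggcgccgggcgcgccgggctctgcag
Itm2a: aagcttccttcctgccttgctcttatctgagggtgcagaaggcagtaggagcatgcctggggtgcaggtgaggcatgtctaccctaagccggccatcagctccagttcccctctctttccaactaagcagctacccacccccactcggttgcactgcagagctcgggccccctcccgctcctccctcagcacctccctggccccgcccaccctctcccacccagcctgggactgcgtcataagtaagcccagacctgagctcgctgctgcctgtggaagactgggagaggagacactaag
Flrt2: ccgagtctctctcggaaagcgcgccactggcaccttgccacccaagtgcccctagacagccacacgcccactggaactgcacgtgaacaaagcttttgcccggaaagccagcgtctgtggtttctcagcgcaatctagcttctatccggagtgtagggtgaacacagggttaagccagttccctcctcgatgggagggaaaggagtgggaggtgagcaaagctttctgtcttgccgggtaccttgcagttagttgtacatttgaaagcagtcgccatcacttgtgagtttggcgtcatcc

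Of these 5 windows the one of Crabp1 has a TEAD match, 107 bases upstream of the start. Over all genes with a window, the TEAD letters were in 4 of 29 promoters of genes called higher (13.8%), 1 of 25 of genes called lower (4%) and 1091 of 7946 of genes tested (13.7%); among all 27025 genes of the table the share was 16.6%. For intronic calls they were in 8 of 40 (20%) higher and 6 of 39 (15.4%) lower genes, against 13.8% of the genes tested. The PBX letters were in 0 of 29 higher and 0 of 25 lower genes called in exons, 1.38% of genes tested and 1.74% of the table. For intronic calls they were in 0 of 40 higher and 1 of 39 lower genes (2.56%), against 1.33% of the genes tested. These are matches of letters in a short window, not binding sites.

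Reads in introns, which come mostly from RNA not yet spliced, gave 112 calls, 1.31% of 8581 genes: 52 (0.606%) higher in Tead4 cells and 60 (0.699%) lower. At an unadjusted p under 0.05 the count was 1434. By size, 184 genes (2.14%) were at least 2-fold apart, 83 (0.967%) higher and 101 (1.18%) lower. Libraries did not overlap in 47.1% of all genes tested, and in all 112 calls. Leaving out 1 library gave 9 calls without Tead4 library 1, 56 without Tead4 library 2, 54 without Pbx3 library 1 and 97 without Pbx3 library 2. Without Pbx3 library 2 the 2-fold count was 348, with 213 genes higher and 135 lower.

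Exonic and intronic differences went the same way for each called gene measured in both. Of the 74 exonic calls 52 could be tested in introns; all 52 had the same sign and 37 were called in both. Of the 112 intronic calls 93 could be tested in exons, all with the same sign. A further 15 genes were called in exons alone and 56 in introns alone, among 7993 genes tested in both. Across these genes the exonic and intronic differences had r = 0.895, a description, since both come from the same libraries.

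Some of the largest intronic differences belonged to genes that were under the minimum or not called in exons. Klf12, a zinc finger repressor, had 2.67 and 3.31 intronic reads in Pbx3 cells and 102 and 113 in Tead4 cells, a difference of 4.77 ± 0.50 (adjusted p = 0.00604, limma). Lphn3, an adhesion receptor of neurons, had 42.6 and 57.4 in Pbx3 cells, 153 and 101 with vector and 744 and 802 in Tead4 cells. Its intronic difference was 3.94 ± 0.22 (adjusted p = 0.000203, limma), and its exonic one, 4.78 ± 0.84, missed the threshold (adjusted p = 0.057, limma). Fgf12, an intracellular FGF homologue that binds sodium channels, had 39.1 and 23.2 in Pbx3 cells and 598 and 340 in Tead4 cells, a difference of 3.86 ± 0.35 (adjusted p = 0.0055, limma).

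In the lower direction, the integrin chain Itga9 had 142 and 266 intronic reads in Pbx3 cells, 525 and 216 with vector and 8.54 and 21.5 in Tead4 cells. Its intronic difference was -3.74 ± 0.61 (adjusted p = 0.0289, limma), and its exonic one was -4.13 ± 0.72 (adjusted p = 0.0563, limma). Sncaip, a partner of alpha-synuclein, had 92.4 and 127 in Pbx3 cells, 443 and 349 with vector and 8.54 and 13.6 in Tead4 cells, so the 3 groups were in separate ranges, vector highest (-3.21 ± 0.30, adjusted p = 0.00559, limma). Crabp1 (4.59 ± 0.75, adjusted p = 0.0292), Flrt2 (-3.26 ± 0.36, adjusted p = 0.00604), Postn (-3.004 ± 0.445, adjusted p = 0.0191) and Lama4 (-2.99 ± 0.31, adjusted p = 0.00604) were called by limma in introns too, with the sign they had in exons.

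The balance of exonic to intronic reads, tested as the difference between the log2 values of the same library, was called for 2 of 7993 genes (0.025%), the factors themselves; at an unadjusted p under 0.05 the count was 356. Tead4 had 42.6 and 30.9 intronic reads in Pbx3 cells and 764 and 749 in Tead4 cells, an intronic difference of 4.34 ± 0.20 (adjusted p = 9.51e-05, limma). Pbx3 had 5109 and 4745 intronic reads in Pbx3 cells, 1313 and 1562 with vector and 1398 and 1288 in Tead4 cells, a difference of -1.87 ± 0.15 (adjusted p = 0.00324, limma). So both factors were also higher in introns in the cells labelled for them, by less than in exons. The exonic minus the intronic difference was 3.25 ± 0.25 for Tead4 (adjusted p = 0.00195, limma) and -5.00 ± 0.18 for Pbx3 (adjusted p = 5.77e-06, limma). Dock8 came next: its intronic reads were 217 and 228 in Pbx3 cells and 889 and 654 in Tead4 cells, and its exonic minus intronic value of 1.48 ± 0.19 missed the threshold (adjusted p = 0.0655, limma).

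**Figure D3:**
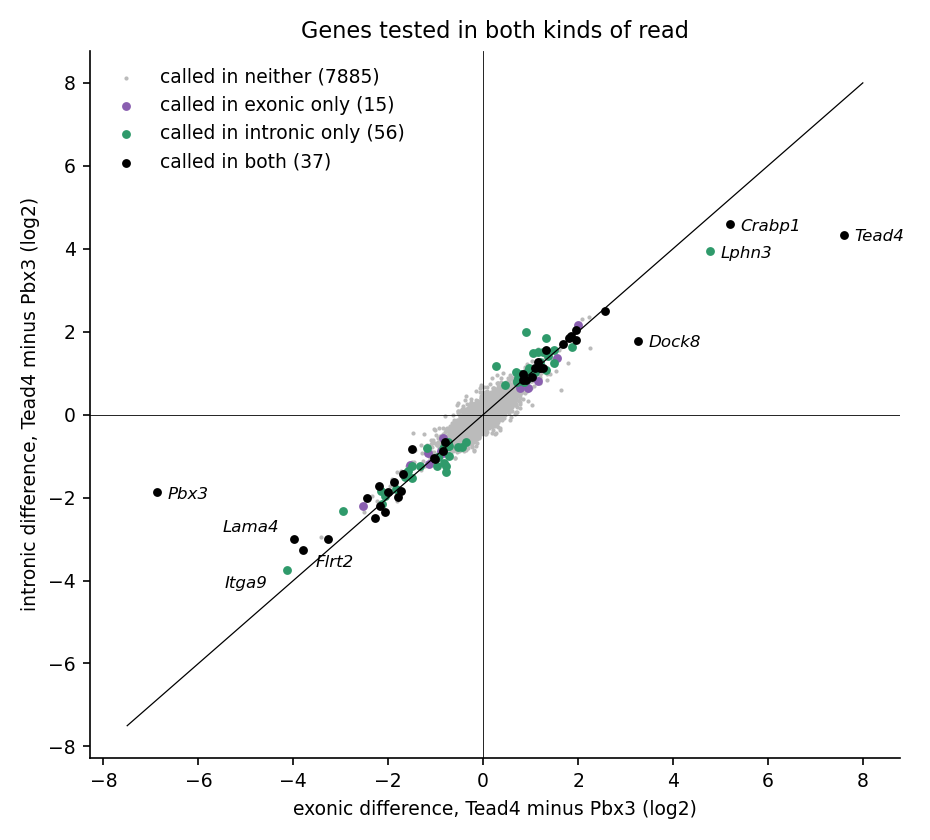
Difference between Tead4 and Pbx3 cells (log2) in exonic reads (x axis) and intronic reads (y axis) for the 7993 genes tested in both, with the line of equal differences; colours mark the 37 genes called in both, 15 in exons alone, 56 in introns alone and 7885 in neither. Tead4 and Pbx3 lie off the line, with larger exonic than intronic differences, and most other called genes lie near it.

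Genes were then read by pathway and role, in 41 lists. Of 543 list genes tested in exons 15 were called, and 28 lists held no call. The 15 include Tead4 and Pbx3 themselves, which were raised by design, each the 1 call of its factor list. All of these shares stand beside 0.754% called over all genes tested. The list medians given here stand beside the median of 0.02 over all genes.

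The lists of TEAD cofactors, of TEAD and YAP targets and of MEIS and PREP partners held no call. None of the 23 tested cofactors and Hippo kinases was called or 2-fold apart, and 12 were above and 11 below 0; the largest values were -0.65 for Amotl2 and -0.48 for Vgll3. Of 24 tested targets of TEAD and YAP none was called, 8 were above and 16 below 0, and the median was -0.31. Ctgf, the matricellular target, had 10700 and 4395 reads in Pbx3 cells, 3806 and 7532 with vector and 2794 and 1804 in Tead4 cells. The Tead4 and Pbx3 libraries did not overlap, with a difference of -1.61 ± 0.50, but Pbx3 library 1 was well above library 2 (adjusted p = 0.179, limma). Edn1, the vasoconstrictor endothelin, had 1014 and 558 in Pbx3 cells, 514 and 740 with vector and 341 and 202 in Tead4 cells. Its difference between Tead4 and Pbx3 cells was -1.52 ± 0.35 (adjusted p = 0.104, limma). In both genes the vector libraries lay above the Tead4 libraries. Among 6 MEIS and PREP partners of PBX none was called; Meis2 had 303 and 182 reads in Pbx3 cells and 124 and 101 in Tead4 cells, a difference of -1.06 ± 0.25 (adjusted p = 0.105, limma). Of 9 Hox genes tested none was called.

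Of the matrix lists, 2 held exonic calls, and the called members were lower in Tead4 cells. In the list of matricellular and elastic fibre genes, 2 of 18 were called lower and 14 of 18 were below 0, with a median of -0.54. Beside Postn it was Fbln5, which helps to assemble elastic fibres, at 931 and 563 in Pbx3 cells and 235 and 216 in Tead4 cells (-1.68 ± 0.25, adjusted p = 0.0348, limma). In introns the same list had 2 genes called lower and 1 called higher, Fbln1, at 1.48 ± 0.22 (adjusted p = 0.0194, limma). In the basement membrane list 2 of 15 were called lower, Lama4 and Nid2, which links laminin to collagen IV. Nid2 had 178 and 203 reads in Pbx3 cells and 57.3 and 64.7 in Tead4 cells (-1.63 ± 0.27, adjusted p = 0.0459, limma). The list's median was 0.25, on the other side of 0 from its called genes. None of 13 fibrillar and fibril-associated collagens was called; 10 were below 0. None of 10 integrins was called in exons; 9 were below 0 and 3 were 2-fold lower, among them Itga11, a collagen receptor chain, at -1.95 ± 0.49 (adjusted p = 0.116, limma).

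Signals and receptors gave single calls. Tgfbr2, the receptor that binds TGF-beta, had 1410 and 1680 reads in Pbx3 cells, 1107 and 1036 with vector and 697 and 798 in Tead4 cells. It differed by -1.04 ± 0.14 (adjusted p = 0.0283, limma), as 1 of 24 genes of the TGF-beta and BMP list. Its vector mean was nearer to Tead4 cells on the log2 scale. Unc5c, a netrin receptor and 1 of 22 axon guidance genes, had 190 and 135 in Pbx3 cells and 616 and 438 in Tead4 cells and differed by 1.69 ± 0.28 (adjusted p = 0.0459, limma). In introns Unc5c was called too (1.71 ± 0.26, adjusted p = 0.0201, limma), as were Slit2, a repellent ligand (2.21 ± 0.27, adjusted p = 0.0101, limma), and Sema5a, a semaphorin (-1.97 ± 0.30, adjusted p = 0.0201, limma). Igf2bp2 was 1 of 6 genes of the insulin-like growth factor list and Crabp1 1 of 7 of the retinoid list; no other gene of these was called.

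Chemokines and other inflammatory signals had the highest median of the lists plotted, 1.20 over 12 tested genes. Of these 11 were above 0, 11 had libraries that did not overlap (48.3% over all genes) and 7 were 2-fold higher in Tead4 cells (1.36% over all genes), but only Ptges was called. Ptges, which makes prostaglandin E2, had 231 and 242 reads in Pbx3 cells, 369 and 319 with vector and 525 and 582 in Tead4 cells, a difference of 1.22 ± 0.15 (adjusted p = 0.0218, limma). The other 6 were the chemokines Cxcl5, Cxcl10, Cx3cl1, Ccl2, Cxcl14 and Cxcl1, with differences of 2.10, 1.53, 1.42, 1.33, 1.23 and 1.19 and adjusted p from 0.0619 to 0.241 (limma). Cxcl5, which attracts neutrophils, had 72.6 and 46.2 reads in Pbx3 cells, 102 and 88.6 with vector and 294 and 216 in Tead4 cells. Ccl2, which attracts monocytes, had 144 and 128, 379 and 411, and 285 and 415 in the same order, so here Tead4 cells were near vector and Pbx3 cells were low. Ccl7, another monocyte chemokine, was called in introns, at 1.99 ± 0.26 (adjusted p = 0.012, limma).

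Growth and metabolism lists held few calls. Of 40 cell cycle and replication genes 1 was called, Ccnd2, a D-type cyclin that drives entry into S phase. It had 732 and 910 reads in Pbx3 cells and 2829 and 2048 in Tead4 cells, a difference of 1.56 ± 0.22 (adjusted p = 0.0348, limma), while the list's median was 0.02. Ccnd1 was also 2-fold higher in the means, at 1.24 ± 0.33 (adjusted p = 0.136, limma). Of 19 p53 targets 1 was called lower, Plk2, a kinase of centriole duplication (-0.88 ± 0.14, adjusted p = 0.0459, limma). It had 3203 and 2869 reads in Pbx3 cells, 1829 and 1908 with vector and 1591 and 1708 in Tead4 cells. Its vector mean was nearer to Tead4 cells on the log2 scale. Plk2 lies on chromosome 13. An alternative chosen after seeing the data subtracted the median of neighbouring genes in each library, as described with the chromosomes. Plk2 was then at -0.52 and no longer called (adjusted p = 0.166, limma). Slc16a3 was the 1 call of 21 glycolysis and hypoxia genes. Plagl1, an imprinted zinc finger gene, had 204 and 173 in Pbx3 cells and 53.7 and 47.9 in Tead4 cells (-1.86 ± 0.17, adjusted p = 0.00945, limma), as 1 of 5 imprinted genes.

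In 2 further lists nearly all members leaned one way with no exonic call. Of 23 cholesterol synthesis genes 22 were above 0, with a median of 0.61, and 9 of the 23 had libraries that did not overlap (48.3% over all genes). Here the Pbx3 libraries differed between themselves: the median of library 1 minus library 2 was -1.31 in Pbx3 cells and -0.39 in Tead4 cells. Idi1, an isomerase of the pathway, had 373 and 1324 reads in Pbx3 cells and 1928 and 2495 in Tead4 cells, a difference of 1.64 ± 0.76 (adjusted p = 0.332, limma). Cytosolic ribosomal proteins had a median of 0.01 in exons, with 20 of 38 above 0, but -0.34 in introns, with 36 of 38 below 0. In introns 18 of these 38 did not overlap (47.1% over all genes), and 1 was called, Rpl10, with 898 and 807 intronic reads in Pbx3 cells, 726 and 794 with vector and 456 and 547 in Tead4 cells (-0.77 ± 0.14, adjusted p = 0.0382, limma). Rpl10 lies on the X chromosome, and with the median of neighbouring genes subtracted its difference was -0.25 and it was no longer called (adjusted p = 0.599, limma). The intronic median of the list was -0.54 in library pair 1 and -0.20 in pair 2, and the median of library 1 minus library 2 was 0.48 in Pbx3 cells and 0.13 in Tead4 cells.

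**Figure D4:**
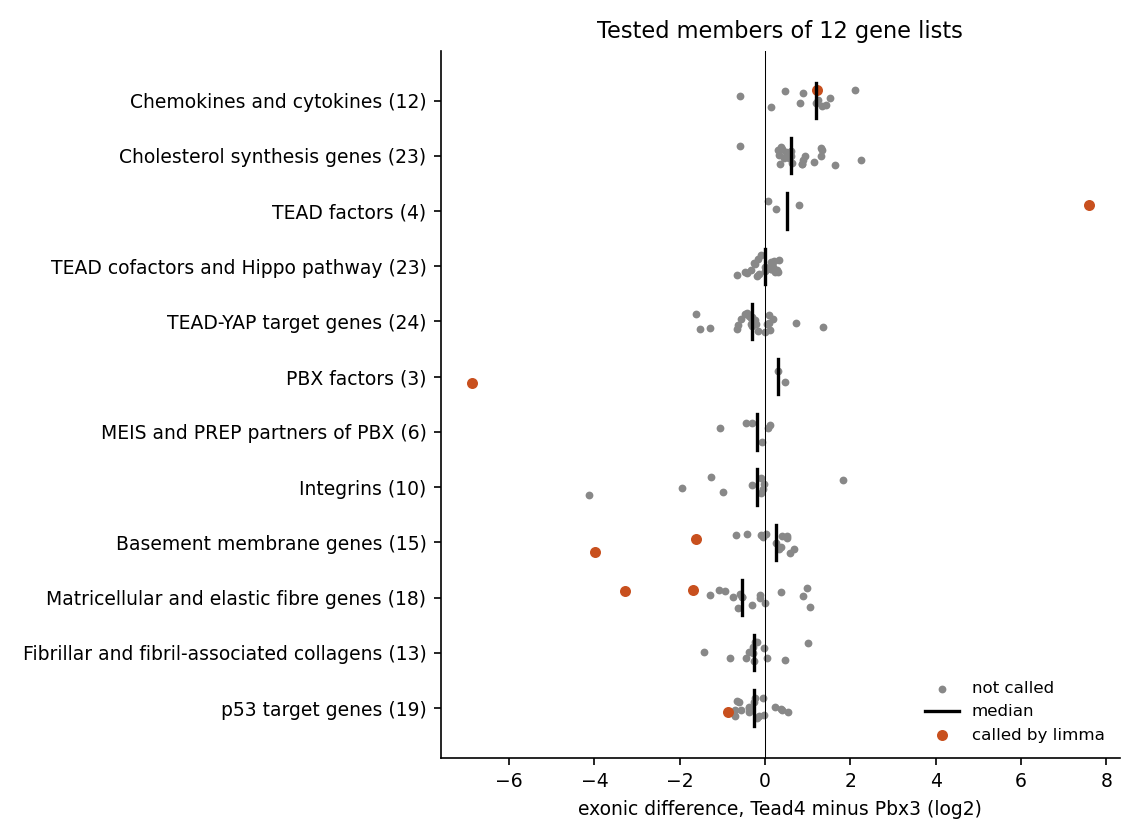
Exonic difference between Tead4 and Pbx3 cells (log2) of each tested gene in 12 of the lists, with the number tested in parentheses; orange points are called genes and black bars list medians. Lama4 is the lowest point of the basement membrane list and Postn that of the matricellular list, and the medians of the plotted lists run from -0.54 for matricellular and elastic fibre genes to 1.20 for chemokines and cytokines.

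The differences also followed chromosomes. Of the exonic genes 9765 (99.5%) could be placed through RefSeq symbols. Genes of the X chromosome had a median difference of -0.42 in exons (315 genes, 81.9% below 0) and -0.43 in introns (276 genes, 83.7% below 0). Chromosome 2 had a median of 0.25 in exons, with 12.7% of its 782 genes below 0, and 0.25 in introns. Chromosomes 5, 9 and 12 had exonic medians of -0.23, -0.22 and -0.22. The shifts were present in both pairs of libraries, with medians of -0.39 and -0.41 for X and 0.23 and 0.26 for chromosome 2. Against vector, the X median was -0.39 in Tead4 cells and 0.01 in Pbx3 cells, and that of chromosome 2 was 0.21 and -0.03. In both the Pbx3 median was near the vector level, whereas on chromosome 6 the medians were -0.17 in Tead4 cells and -0.18 in Pbx3 cells.

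On some chromosomes the shift stopped part of the way along. With the genes of a chromosome taken in order and divided into 8 equal groups, chromosome 7 had exonic medians of -0.26 to -0.39 in its first 5 groups and 0.11 to 0.14 in its last 3. Chromosome 13 had 0.01 to 0.08 in the first 4 and -0.19 to -0.39 in the last 4, and chromosome 19 had 0.14 to 0.41 and then -0.15 to -0.22. On X the groups lay between -0.28 and -0.58, other than the fifth at 0.06. On chromosome 2 all 8 groups lay between 0.20 and 0.31, and on chromosomes 5, 9 and 12 all lay between -0.16 and -0.31. Against vector, the first 5 groups of chromosome 7 had exonic medians of -0.15 to -0.30 in Tead4 cells and 0.07 to 0.19 in Pbx3 cells. DNA copy number was not measured in these samples, and its part in the results was not tested.

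**Figure D5:**
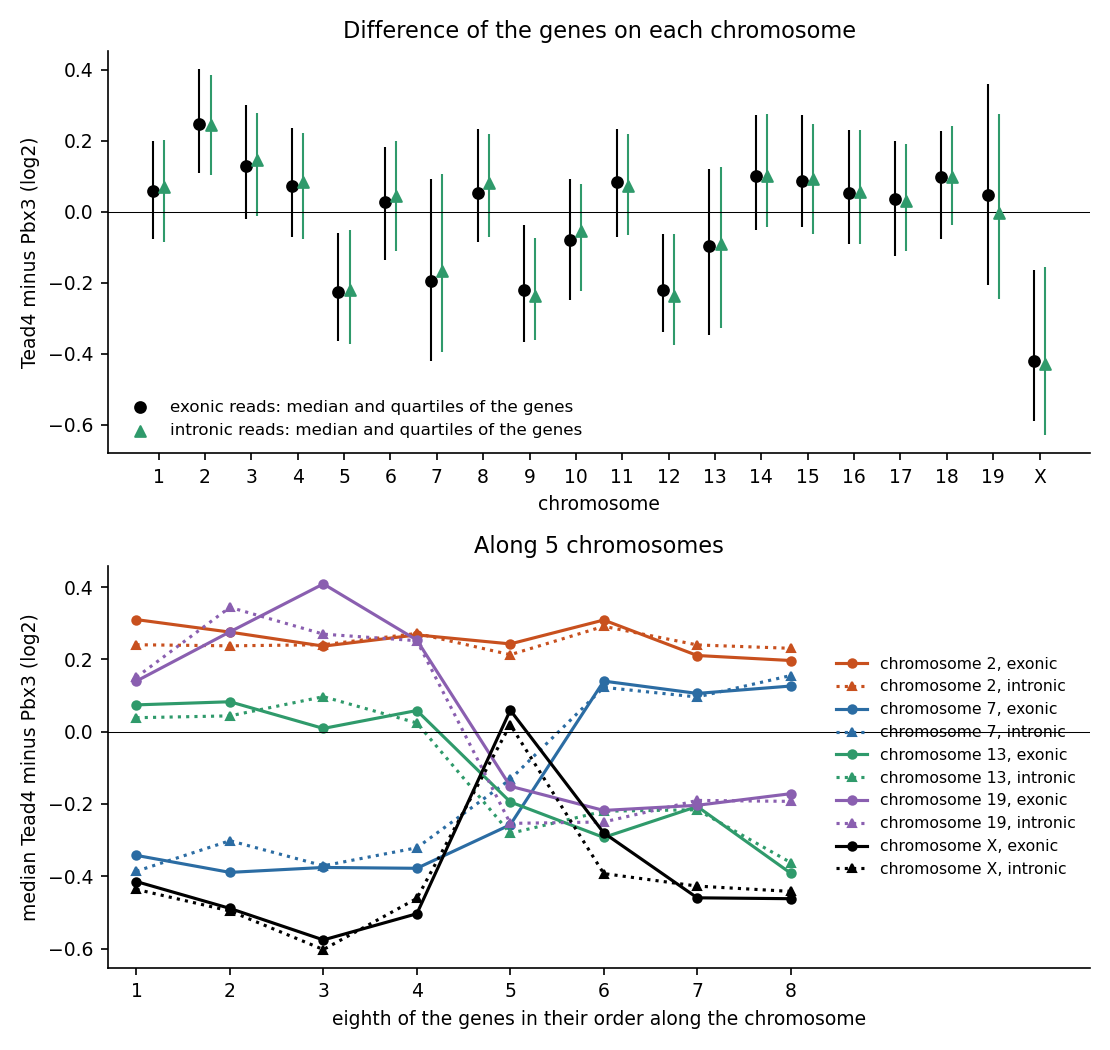
Top, median and quartiles of the difference between Tead4 and Pbx3 cells (log2) over the genes of each chromosome, for exonic reads (circles) and intronic reads (triangles). Bottom, medians over 8 equal groups of genes in their order along 5 chromosomes; X lies lowest and chromosome 2 highest above, and below the lines of chromosomes 7, 13 and 19 cross 0 part of the way along.

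The X chromosome held 4 of the 39 exonic and 13 of the 60 intronic genes called lower and none called higher. Of the placed genes tested it held 315 of 9765 in exons and 276 of 8396 in introns. Over all genes tested, 0.397% were called lower in exons and 0.699% in introns. Beside Itm2a the exonic calls on X included Slc6a8 and Fmr1, at -0.84 and -0.80. An alternative chosen after seeing the data removed the median of neighbouring genes. In each of the 8 libraries the median deviation over each of the 8 groups of genes along a chromosome was subtracted, and limma was fitted again. The new fit called 29 exonic genes, 10 higher and 19 lower, and 28 of them were among the 74. In introns 84 genes were called, 46 higher and 38 lower, 68 of them among the 112. On X this left Itm2a in exons and Gria3, a glutamate receptor subunit, in introns. Itm2a then differed by -5.73 (adjusted p = 0.00163), Crabp1 by 5.38 (0.0167), Dock8 by 3.34 (0.0151), Fzd3 by -3.38 (0.00163), Postn by -3.40 (0.0253) and Flrt2 by -3.56 (0.0325), all by limma. Slc6a8 and Fmr1 were then no longer called (adjusted p = 0.525 and 0.675, limma). The same held for 17 of the other exonic genes described above. Higher in Tead4 cells these were Aqp1, Slc16a3 (both adjusted p = 0.05003), Ccnd2 (0.0542), Igf2bp2 (0.0596), Pdpn (0.066), Unc5c (0.0692), Cldn1 (0.0765), Ptges (0.0765) and Zfp521 (0.0981). Lower in Tead4 cells they were Neto2 (0.05003), Camk4 (0.0603), Fbln5 (0.0603), Tmod2 (0.066), Nid2 (0.066), Mboat2 (0.0765), Tgfbr2 (0.0881) and Plk2 (0.166). All 17 kept their direction. The difference grew in Neto2 (-2.37 to -2.46), Camk4 (-2.45 to -2.51) and Nid2 (-1.63 to -1.65) and shrank in the rest. Plk2 moved most in proportion among these 17, from -0.88 to -0.52, while Aqp1 went from 1.99 to 1.97.

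Genes at the thresholds show how close a choice lay. Fmod, with a mean of 49.995, was just under the minimum and 4930583H14Rik, with 50.06, just over it. Il7, at a log2 ratio of 1.002, was the last gene within the 2-fold count on the higher side, and Adam19, at 0.998, the first outside it. On the lower side these were Myo7a at -1.001 and Mtm1 at -0.994.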

How the data were processed

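Total RNA was depleted of ribosomal RNA, made into strand-specific single-end libraries and sequenced, per the labels' protocols. The submitters' processing notes name Bowtie2, the mm9 genome and DESeq 1.10.1; the annotation, counting tool, use of strand and treatment of reads shared by gene copies or overlapping genes: not given in the sources used here. The deposited tables hold, per the file headers, a mean signal per group (exonic or intronic read counts divided by size factors), its ratio as a fold change, the log2 of that ratio and the authors' p-value for each group against vector. The mean signal was used here; ratio, log2 and p-value columns of the authors served only to check the tables. No table column lacked a sample or group (0 such columns).

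Each deposited mean resolved into whole reads of 2 libraries with their size factors, uniquely for 100.0% of genes (relative tolerance 1e-12). The libraries of a group carry no number in the labels: library 1 here is the one with the larger size factor. The Tead4 tables were put on the scale of the Pbx3 tables by the median ratio of their vector means over genes with both at 200 or more (1.014 over 7365 genes in exons, 0.998 over 4899 in introns). Genes with a mean of 50 or more entered a fit by limma 3.58.1 (R 4.3.3) with its trended variance, whose response was log2(normalised reads + 1) in the 8 libraries of the vector, Pbx3, Sox9 and Tead4 groups. The pseudocount of 1 understates the change of low genes. The scripts were tested on simulated data.

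The genes, lists and tests were chosen with earlier results of these data known. Named are the factors' families, the 12 called and 2-fold genes with the largest exonic difference in each direction, 5 in each direction in introns, up to 4 called members of each list and otherwise the 2 largest; other genes were named after their values were seen. Promoter sequences come from RefSeq (GRCm38.p6). Alternatives are given in the closing section. Some results are not reported here, and the Dicer comparison was not used here.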

Additional observations from a re-analysis of the deposited data

How the results depend on the processing

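No called gene changed direction under any alternative. Of 37 named genes that were called, 4 were called under each alternative that tested them: Fzd3, Pbx3, Sncaip and Tead4. With only the 4 Tead4 and Pbx3 libraries in the fit, the counts fell to 4 exonic calls in place of 74 (Flrt2, Fzd3, Pbx3 and Tead4) and 42 intronic in place of 112. A minimum mean of 200 was reached by 44 of the 74 exonic and 57 of the 112 intronic calls. It left 8 exonic and 51 intronic calls, and 113 exonic and 57 intronic genes at least 2-fold apart. With no minimum mean the 2-fold counts were 1433 and 1460, since low genes then enter. Leaving out 1 library gave 4 to 35 exonic and 9 to 97 intronic calls, and 279 to 556 exonic and 198 to 348 intronic genes 2-fold apart. Removing the median of neighbouring genes, an alternative chosen after seeing the data, left 29 exonic calls. With a pseudocount of 8, median-of-ratios or upper-quartile factors, or voom weights, the counts of calls stayed at 62 to 84 in exons and 102 to 141 in introns.

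The labels give no replicate numbers. A replicate block was fitted with the library order of each group set by the sign of its exonic correlation with the vector deviations. That choice was made from the data, so a positive exonic correlation with vector follows from the matching. The Tead4 and Pbx3 deviations, matched to each other only through vector, then had correlations of 0.48 in exons and 0.47 in introns. Matching both to vector favours a positive value here too, so these correlations are not separate evidence for a block. The block gave 1223 exonic calls, among them all 74, and 982 intronic calls; it is a hint from the data and not the design. Fits with the 4 libraries alone, voom weights or the block were not run for the 2-fold counts, which have no test, nor voom for the exonic minus intronic values. With no minimum mean 109 exonic and 151 intronic genes were called, 72 of the 74 and 110 of the 112 among them.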
